A study of Mus musculus with 2 samples.

Results

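Chemokines and chemokine receptors were described in dental pulp of mice at postnatal day 12, cell class by cell class, in a control library and in a library from mice whose endothelial Vegfr2 was knocked out. Members were the genes whose symbol began with Ccl, Cxcl, Cx3cl, Xcl, Ccr, Cxcr, Cx3cr, Xcr or Ackr followed by a digit and that had at least 20 unique molecular identifiers (UMIs, each a counted RNA molecule) over both deposited matrices. Of 31053 genes, 67 fitted the symbol rule and 43 passed the UMI limit, namely 27 ligands and 16 receptors. Just inside the limit were Cxcl9 with 24 UMIs and Ccl8 with 25, and just outside it was Ccl19 with 16. A further 14 rows had 0 UMIs, and 10 had between 1 and 19, among them Cxcl5, Ccl21a, Cxcl13, Ackr4 and the receptors Ccr3, Ccr4, Ccr8 and Ccr10.

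Both libraries were C57BL/6 pulp cells, dissociated with collagenase D and dispase and sorted as negative for the dead-cell dye propidium iodide. They were read with 10x Chromium Single Cell 3' v3.1 chemistry. Each genotype had 1 library. The promoter that drives the endothelial recombination and the number of animals per library were not given in the sources used here. No difference below therefore has a replicate check, no test was made, and intervals are 95% intervals for counting error only. The kept cells numbered 2309 (control) and 1679 (knockout), with medians of 12198 and 8293 UMIs, and the libraries shared 3 barcodes. Each library held cells of both sexes: 1714 control and 873 knockout cells had Xist without Y-linked UMIs (from females), and 328 and 447 had Y-linked UMIs without Xist (from males). Each library thus held at least 1 female and 1 male animal. Kdr, which encodes VEGFR2, stood at 1054 CPM (UMIs of a gene per 1000000 UMIs of the class) in control and 650 CPM in knockout endothelial cells, a ratio of 0.616. Among the endothelial clusters described below, the Kdr ratio was 0.557 in the Esm1-led, 0.277 in the Gja5-led and 0.995 (0.872 to 1.13) in the Aplnr-led cluster. A 3' read can lie outside a deleted part, so these levels do not check the label.

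Chemokines are small secreted proteins that guide migrating cells by binding G protein-coupled receptors on them. Inflammatory chemokines are induced by tissue injury and cytokines and recruit neutrophils and monocytes, whereas homeostatic chemokines such as CXCL12 position cells in resting tissue. Atypical receptors (Ackr genes) bind chemokines without G protein signalling and remove or transport them. In the tooth pulp, blood vessels, stromal cells and resident immune cells can all be sources and receivers.

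Among the ligands on which the results below turn, Cxcl1 and Cxcl2 are neutrophil attractants that lie next to each other on chromosome 5. Ccl3 and Ccl12 differed in opposite directions over macrophage-like cells as a whole. Promoter sequences are shown for these and for Cxcl12, 5 ligands in all. Each runs from 250 bases before the start of transcription to 50 bases after it, 5′ to 3′ on the gene's strand, from RefSeq on GRCm38.p6, and 33 of the 43 members had such a window. Capitals mark matches, on either strand, to the kappa B consensus bound by NF-kappa B, to the AP-1 motif TGANTCA or to the TATA motif TATAAA.
Cxcl1, chr5:90890995-90891294, plus strand: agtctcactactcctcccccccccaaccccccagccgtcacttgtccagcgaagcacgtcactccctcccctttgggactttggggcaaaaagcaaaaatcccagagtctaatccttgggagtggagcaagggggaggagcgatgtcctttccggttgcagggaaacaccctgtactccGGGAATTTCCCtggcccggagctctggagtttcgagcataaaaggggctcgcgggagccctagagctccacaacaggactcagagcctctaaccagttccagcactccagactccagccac
Cxcl2, chr5:90903649-90903948, plus strand: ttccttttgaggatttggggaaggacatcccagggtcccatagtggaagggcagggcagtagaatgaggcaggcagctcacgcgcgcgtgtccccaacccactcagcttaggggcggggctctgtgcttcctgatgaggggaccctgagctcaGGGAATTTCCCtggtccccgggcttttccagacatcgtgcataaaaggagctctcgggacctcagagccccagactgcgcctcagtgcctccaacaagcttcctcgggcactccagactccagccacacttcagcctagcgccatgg
Ccl3, chr11:83649329-83649628, minus strand: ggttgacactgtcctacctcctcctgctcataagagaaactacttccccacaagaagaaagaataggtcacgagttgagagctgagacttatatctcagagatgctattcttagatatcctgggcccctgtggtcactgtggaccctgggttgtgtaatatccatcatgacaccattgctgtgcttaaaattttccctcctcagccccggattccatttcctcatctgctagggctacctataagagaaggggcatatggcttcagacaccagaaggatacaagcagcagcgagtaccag
Ccl12, chr11:82101595-82101894, plus strand: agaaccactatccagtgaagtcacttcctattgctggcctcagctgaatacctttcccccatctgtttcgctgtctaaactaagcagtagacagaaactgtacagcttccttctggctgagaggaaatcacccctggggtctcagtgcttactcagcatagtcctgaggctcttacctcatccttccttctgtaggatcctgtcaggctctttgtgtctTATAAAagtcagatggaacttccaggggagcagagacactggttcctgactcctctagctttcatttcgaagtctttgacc
Cxcl12, chr6:117168285-117168584, plus strand: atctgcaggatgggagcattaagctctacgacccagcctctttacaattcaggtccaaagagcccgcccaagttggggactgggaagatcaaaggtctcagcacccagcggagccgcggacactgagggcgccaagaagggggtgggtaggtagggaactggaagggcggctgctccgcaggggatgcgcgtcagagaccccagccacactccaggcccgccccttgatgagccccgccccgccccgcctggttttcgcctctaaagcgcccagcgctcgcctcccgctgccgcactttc
The capitals in Cxcl1 and Cxcl2 are 2 overlapping kappa B matches each, from -71 to -61 in Cxcl1 and from -97 to -87 in Cxcl2, counted from the start of transcription. The capitals in Ccl12 are a TATA match from -31 to -26. Ccl3 and Cxcl12 had no match in these windows. The kappa B consensus was present for 10 of the 33 members with a window (Ackr2, Ccl1, Ccl27a, Ccl9, Ccr1, Ccr6, Cxcl1, Cxcl10, Cxcl2 and Cxcl3) and in 8.46% of all 32851 windows. The AP-1 motif was present for 5 of 33 members and in 7.81% of all windows, and the TATA motif for 10 of 33 and in 13.6%. A member counts with a match in any of its windows (37 windows for the 33 members), whereas the percentages are per window.

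Cells were grouped into classes by fixed marker genes after clustering without the members themselves. The compared classes were endothelial-like cells (405 control and 141 knockout cells), mural-like cells that wrap vessels (276 and 165), pulp mesenchyme-like cells (295 and 306), glia-like cells (335 and 329), monocyte or macrophage-like cells (220 and 223), dendritic-like cells (288 and 291), neutrophil-like cells (36 and 37) and B-like cells (38 and 36). The class names are used below without "-like", and clusters within a class are called by 1 to 3 of their 10 leading genes. T or NK-like cells (19 and 32), a Col9a1-led mesenchymal cluster (144 and 24) and dental follicle-like cells (117 and 24) had too few cells in 1 library for a ratio. The 12 endothelial markers, all detected, summed to 10878 CPM in control and 11010 CPM in knockout endothelial cells, and the 13 neutrophil markers to 218024 and 232568 CPM in neutrophils.

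Leukocytes held the highest control level of most members. By CPM of the class sum among classes with at least 30 control cells, 17 of 27 ligands and 12 of 16 receptors were highest in an immune class. The share of all genes that an immune class leads was not counted, so these counts have no background. Dendritic cells led 7 ligands and 2 receptors, and monocytes or macrophages led 7 ligands and 2 receptors. Neutrophils led 3 of each role, and B cells led 5 receptors. Some of these leads rest on very few UMIs. Cxcl3 in neutrophils (3.19 CPM) and Ccr6 in B cells (6.24 CPM) stood below the level that 3 UMIs would give there (9.565 and 9.362 CPM). Outside the immune classes, pulp mesenchyme led Cxcl12, Cxcl14 and Ccl25, endothelial cells led Cxcl1, Cx3cl1, Ackr1 and Ackr2, and mural cells led Ackr3. The 3 ligands Xcl1, Ccl11 and Ccl1 had no UMI in any of these control classes. With the small T or NK class included, a choice made after the data were seen, the counts were 19 ligands and 13 receptors.

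**Figure D1:**
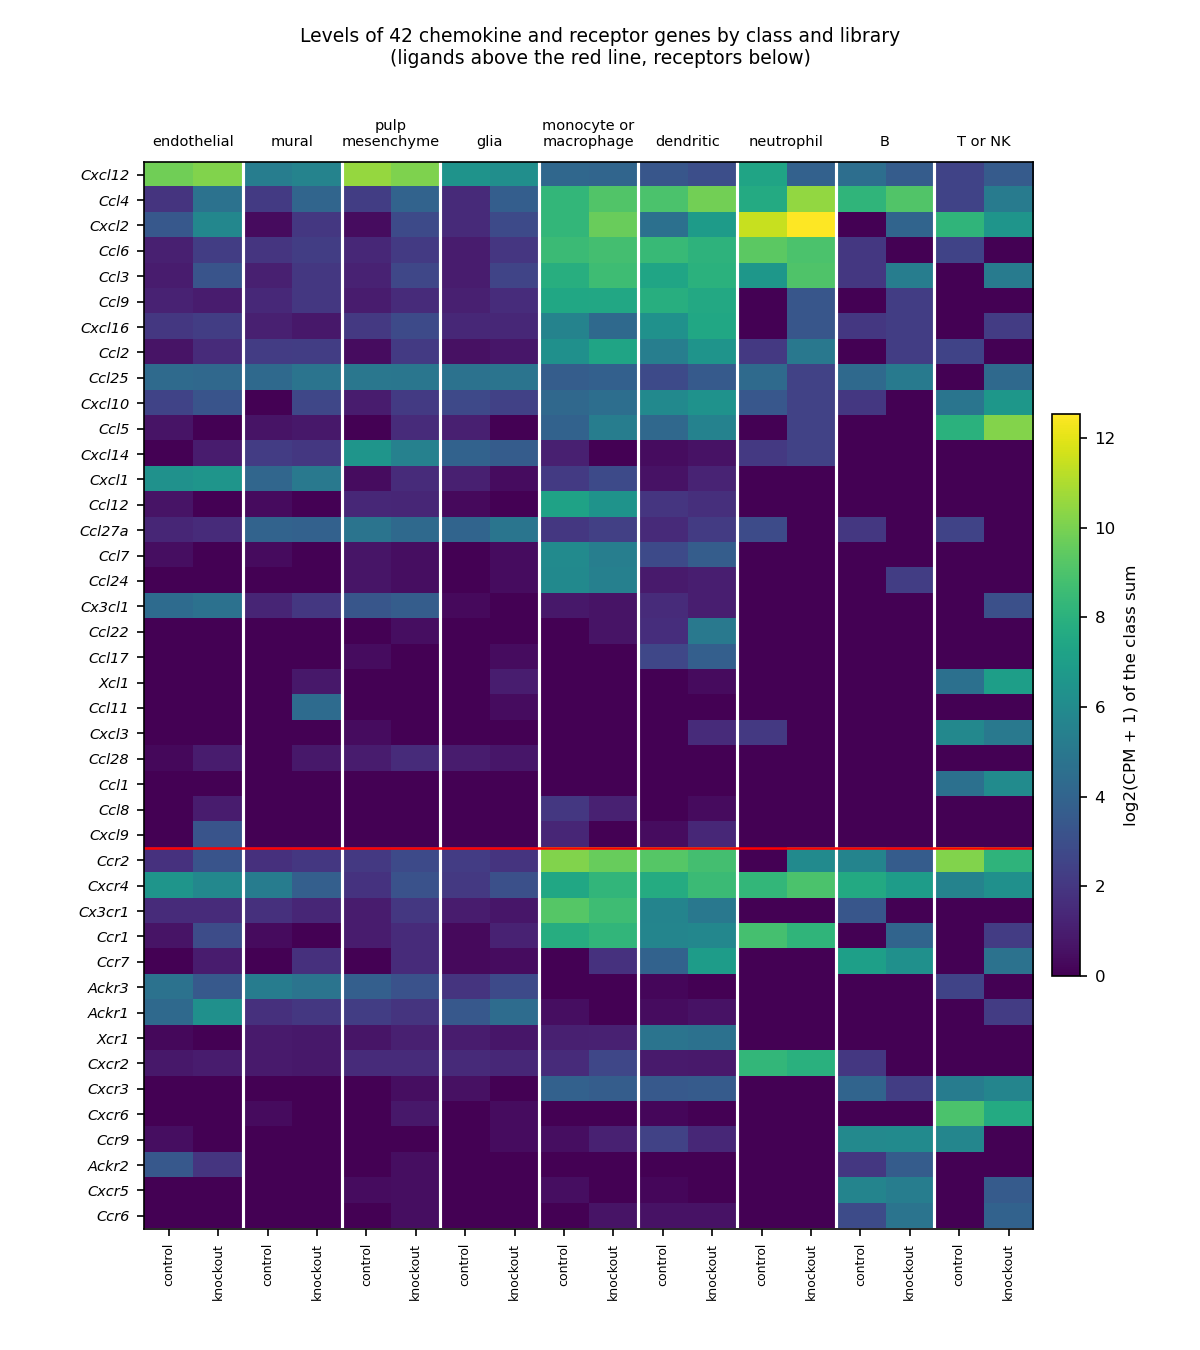
Heat map of log2(CPM + 1) of the class sum for 42 of the 43 genes (rows, ligands above the red line and receptors below) in 9 classes, control library left and knockout library right within each class. Cxcl12 is bright in endothelial and pulp mesenchyme columns (895 and 1477 CPM in the control library), Cxcl2 in neutrophils (2866 and 5886 CPM) and Ccr2 in monocytes or macrophages (1129 and 771 CPM).

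Over the 8 compared classes, 100 pairs of a member and a class had at least 20 UMIs over both libraries. Of these, 42 were at least 1.5-fold higher and 15 at least 1.5-fold lower in the knockout library. In dendritic cells 13 of 25 members were higher, against 9.37% of all 10500 genes tested in that class, and 2 were lower, against 14.4%. In monocytes or macrophages 6 of 20 were higher (11.3% of all genes) and 3 lower (11.4%). In neutrophils 4 of 8 were higher (13.3%) and 2 lower (30.8%), and in B cells 1 of 5 was higher (13.5%) and 2 lower (14.9%). In endothelial cells 5 of 13 were higher (11.9%) and 3 lower (15.2%), and in mural cells 3 of 8 were higher (10.9%) and 1 lower (11.5%). In pulp mesenchyme 4 of 10 were higher (10%) and 2 lower (9%), and in glia 6 of 11 were higher (9.66%) and 0 lower (11.1%). The members' median log2 ratio was 0.66 in dendritic cells, where that of all genes was -0.14, and 0.84 in glia, where that of all genes was -0.00167. It was 0.11 in monocytes or macrophages and 0.32 in endothelial cells, beside medians of all genes of 0.00195 and -0.02. Scaled by the median gene in place of total UMIs, which moves dendritic ratios by 0.14 and neutrophil ratios by 0.18 on the log2 scale, 44 pairs were higher and 13 lower.

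**Figure D2:**
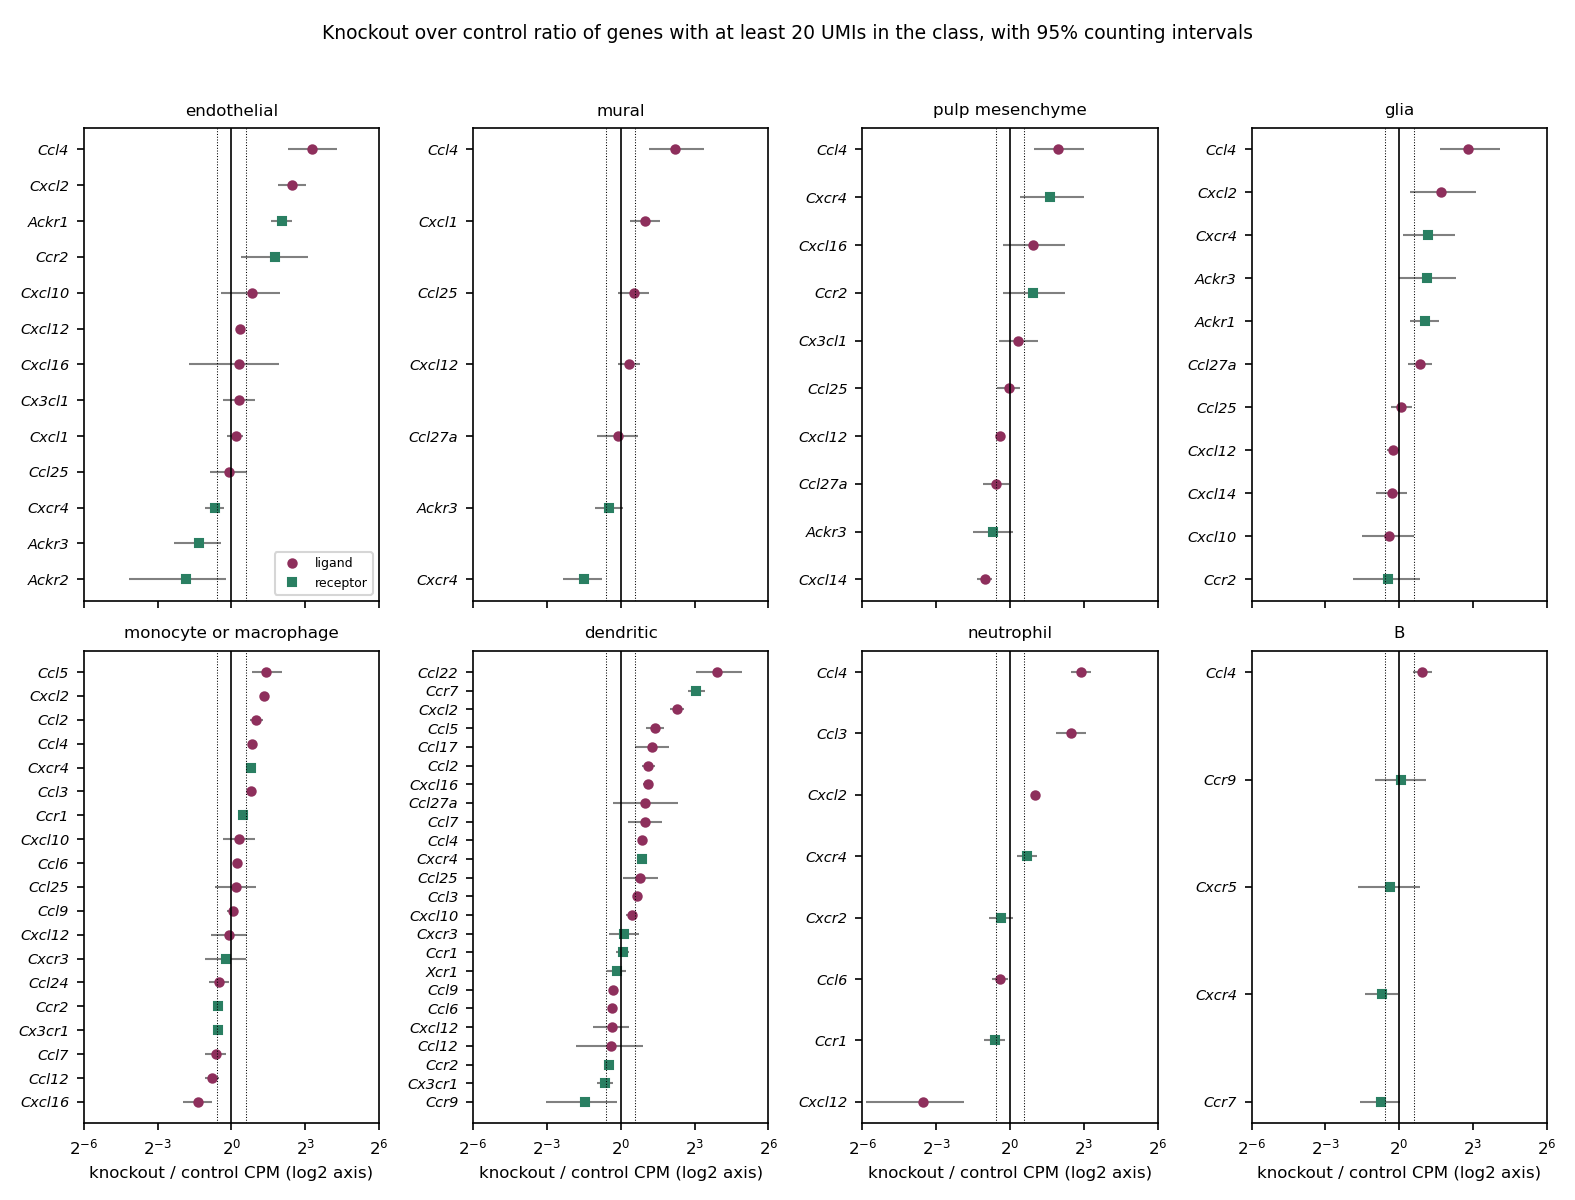
Knockout over control ratio of CPM (log2 axis) with its 95% counting interval for each gene drawn with at least 20 UMIs in the class, in 8 classes. Circles are ligands, squares receptors, and dotted lines mark 1.5-fold. Ccl4 is at or above 1.5 in each class, Cxcr4 is on the left in endothelial, mural and B cells and on the right in the other 5 classes, and Ccl11, at 0 in control mural cells, has no ratio.

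Some of the pairs outside leukocytes rest on very low levels of genes that immune cells lead. Ccl4, an attractant of monocytes and lymphocytes, was 9.61-fold higher in knockout endothelial cells, but from 2.66 to 25.6 CPM, the latter 1.77% of the highest class level in that library. Mural Ccl4 was 3.44 and 16.1 CPM (4.68, 2.20 to 10.4) and pulp mesenchyme Ccl4 3.83 and 14.8 CPM (3.86, 1.98 to 8.10). In glia Ccl4 stood at 1.83 and 12.6 CPM (6.90, 3.17 to 17.1), and of the 37 knockout glia with a UMI of it 36 had a single one. Glial Cxcl2, on 8 control and 18 knockout UMIs, was 1.83 and 5.97 CPM (3.27, 1.35 to 8.69), and endothelial Ccr2, on 13 and 9 UMIs, 2.47 and 8.54 CPM (3.45, 1.30 to 8.73). Cxcr4 was 3.20 and 7.30 CPM in glia (2.28, 1.12 to 4.83) and 2.55 and 7.97 CPM in pulp mesenchyme (3.12, 1.33 to 8.14). The neutrophil marker list (13 genes) summed to 25.6 CPM in control and 87.0 CPM in knockout glia, and to 29.5 and 99.6 CPM in endothelial cells. In glia the dissociation stress list of 15 genes, described with the vessels below, summed to 1680 and 2927 CPM (1.74 times), with 10 of 15 genes at least 1.5-fold higher. The part of free RNA or of stress in these values was not tested. When only pairs reaching 10% of the member's highest class level were counted, a limit added with the data in view, 27 of 74 were higher and 12 lower.

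Cxcl12, the ligand of CXCR4 and ACKR3 and a retention signal for many cell types, came mainly from vessels and mesenchyme. It is a protein-coding gene at chr6:117168535-117181367 (mm10) and had 13453 control and 5403 knockout UMIs in the deposited matrices. Of its control UMIs in kept cells 39.6% were endothelial and 39.0% in the pulp mesenchyme class, and of its knockout UMIs 26.2% and 63.0%. Of the 11873 control and 4612 knockout UMIs in kept cells, the Col9a1-led mesenchymal cluster (144 and 24 cells) held a further 964 and 74. Dental follicle cells (117 and 24) held 795 and 37. Endothelial cells made up 17.5% of the control and 8.40% of the knockout cells kept. Fewer endothelial cells in the tissue and fewer recovered by dissociation cannot be told apart. Within the class, endothelial Cxcl12 was 895 CPM (control) and 1147 CPM (knockout), a ratio of 1.28 (1.2 to 1.37). Pulp mesenchyme had 1477 and 1102 CPM, a ratio of 0.746 (0.712 to 0.782).

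The endothelial value went against the clusters that make it up. In the cluster called by Gja5 and Cldn5, of which Gja5 is an arterial gene, Cxcl12 was 3876 and 2645 CPM, control before knockout, a ratio of 0.682 (0.632 to 0.737). In the cluster led by Esm1, a tip cell gene, it was 1195 and 960 CPM (0.803, 0.705 to 0.912). In the cluster led by Aplnr, Vwf and Selp, where Selp and Vwf are genes of venous endothelium, it was 157 and 54.6 CPM (0.348, 0.218 to 0.528). Each cluster was lower while the class was higher, and the Gja5-led cluster, the one with most Cxcl12, gave 56 of 405 control and 36 of 141 knockout endothelial cells. The mesenchymal clusters did not differ alike: the Cldn10-led cluster had 1655 and 1456 CPM (0.88, 0.833 to 0.93), and the other 692 and 774 CPM (1.12, 0.996 to 1.26). The Cldn10-led cluster, the one with more Cxcl12, gave 246 of 295 control and 149 of 306 knockout pulp mesenchyme cells. By sex, pulp Cxcl12 was 1514 and 1024 CPM where Xist marked the cells and 1261 and 1308 CPM where Y-linked genes did.

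**Figure D3:**
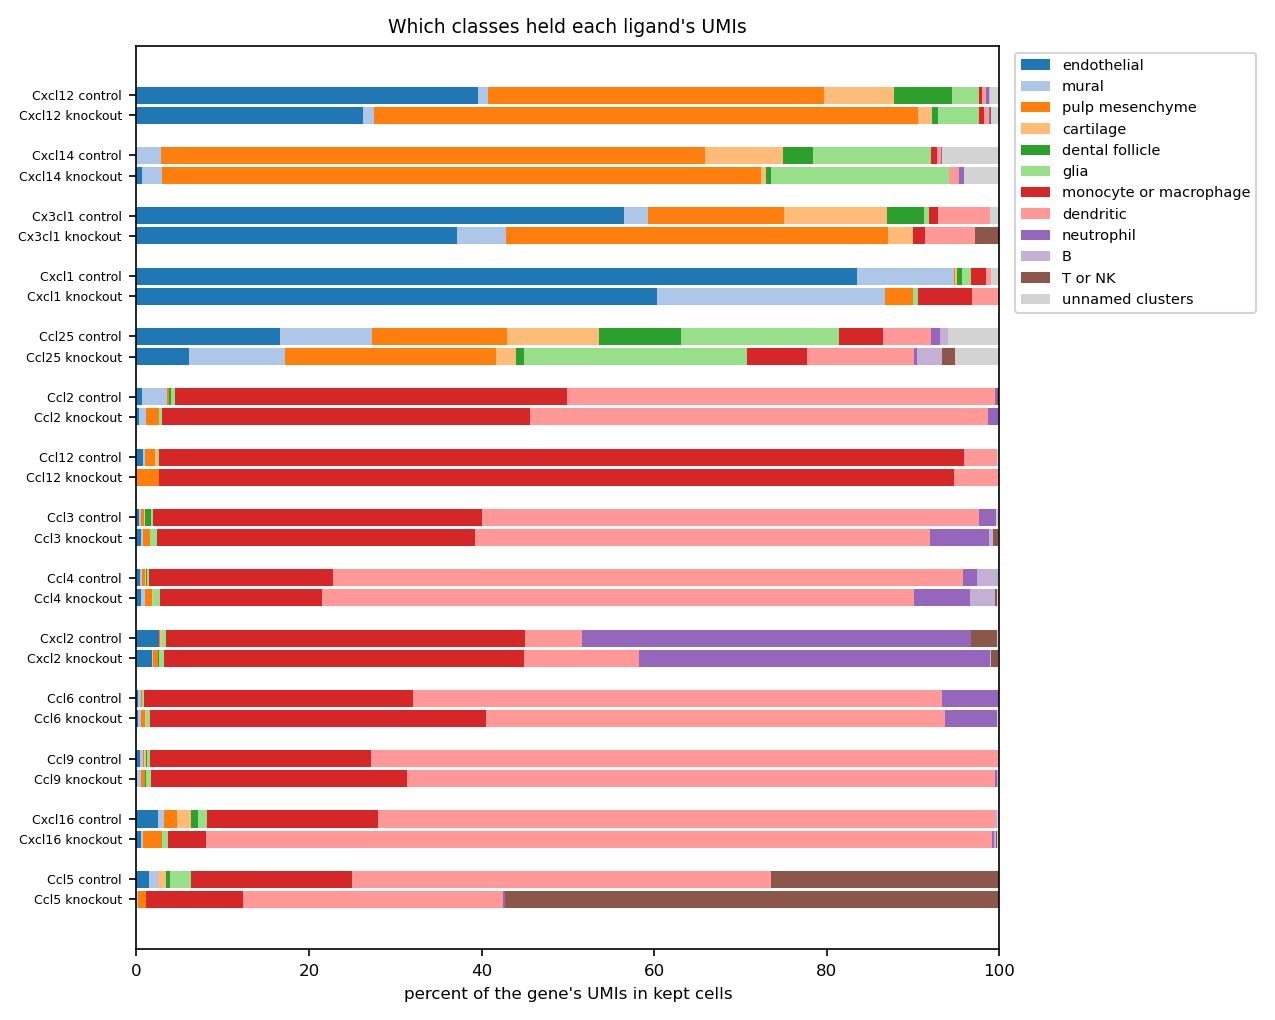
Share of each ligand's UMIs in kept cells (percent) held by each class, control above knockout for 14 ligands. The endothelial part of Cxcl12 is 39.6% in the control and 26.2% in the knockout library, whereas Ccl3, Ccl4, Ccl6 and Ccl9 come mainly from monocytes or macrophages and dendritic cells in both. The class drawn as cartilage is the Col9a1-led cluster.

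Both receptors of CXCL12 were lower in knockout endothelial cells. Cxcr4, the signalling receptor, had 90.8 CPM in control and 56.9 CPM in knockout endothelial cells, a ratio of 0.627 (0.471 to 0.821), or 0.696 without 1 control cell. It had 37.0 and 13.0 CPM in mural cells, a ratio of 0.353 (0.199 to 0.587). In the Gja5-led endothelial cluster it was 307 and 78.7 CPM (0.256, 0.165 to 0.384), and the intervals of the other endothelial clusters, at 0.869 and 0.685, include 1. Ackr3, the atypical receptor that clears CXCL12, had 25.7 and 10.4 CPM in endothelial cells, a ratio of 0.406 (0.198 to 0.750). Its mural level was 37.0 and 26.8 CPM, with an interval that includes 1 (0.485 to 1.06). By sex, the endothelial Cxcr4 ratio was 0.748 (0.523 to 1.04) for Xist-positive and 0.559 (0.305 to 0.966) for Y-positive cells. The 15 genes of a dissociation stress list, such as immediate early genes, summed to 1.79 times the control level in knockout endothelial cells and 2.32 times in mural cells. The mural markers (11 of 12 detected in each library) summed to 74.4 and 322 CPM in endothelial cells. The part of either in these results was not tested.

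**Figure D4:**
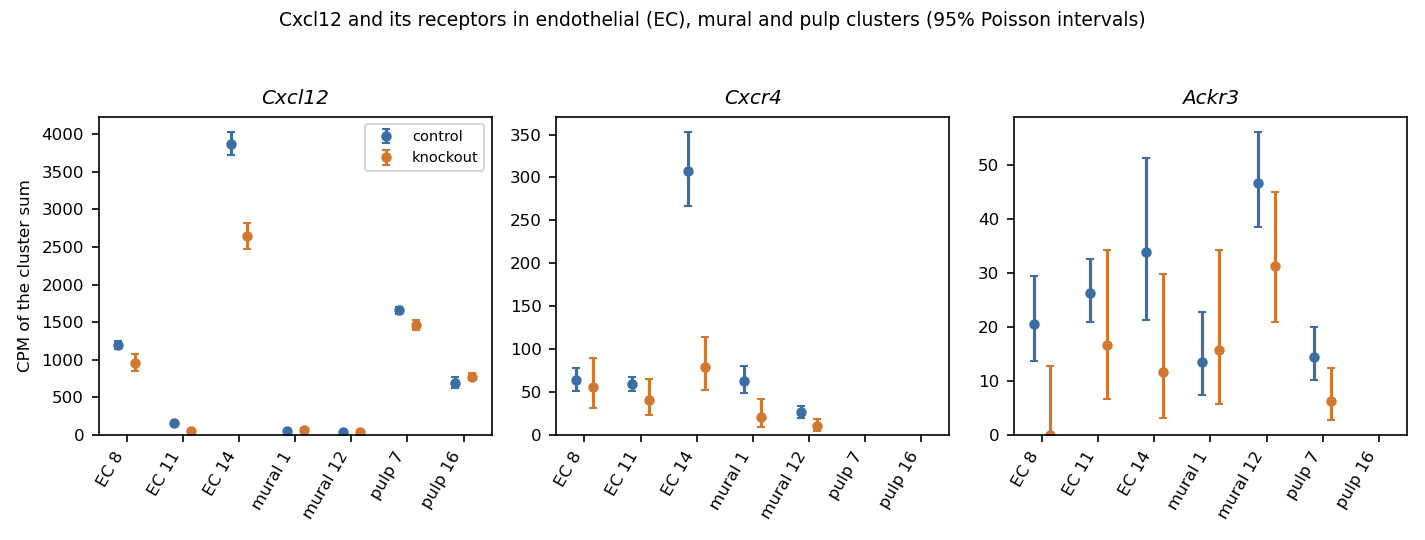
CPM of the cluster sum for Cxcl12, Cxcr4 and Ackr3 in 3 endothelial (EC), 2 mural and 2 pulp mesenchyme clusters, control in blue and knockout in orange, with 95% Poisson intervals. Clusters with under 20 UMIs of a gene are left out. In cluster EC 14, led by Gja5 and Cldn5, Cxcl12 is at 3876 and 2645 CPM and Cxcr4 at 307 and 78.7 CPM.

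In the same endothelial cells the other atypical receptors parted. Ackr1, which carries chemokines across venules, was found in the Aplnr-, Vwf- and Selp-led cluster, where the level was 29.5 CPM (227 control cells) and 185 CPM (73 knockout cells), a ratio of 6.29 (4.59 to 8.58). By sex its endothelial ratio was 3.54 (Xist) and 8.18 (Y-linked). Ackr1 was also seen in glia, at 10.1 and 20.6 CPM (2.05, 1.37 to 3.08), a ratio of 1.00 after thinning. Its locus overlaps Cadm3 on the same strand, so reads of the pair may not be told apart. Ackr2, a scavenger of inflammatory CC chemokines that marks lymphatic endothelium, had 53 control UMIs and 3 knockout UMIs in endothelial cells (10.1 and 2.85 CPM, a ratio of 0.282, 0.0564 to 0.870). Most of these lay in the Esm1-led cluster, with 38 control UMIs in 26 of 122 cells and 2 knockout UMIs (0.257, 0.0301 to 0.995). The lymphatic endothelial marker list (6 genes) summed to 92.5 and 57.9 CPM over all endothelial cells.

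Cx3cl1, a membrane-bound ligand of endothelium, and Cxcl1, an attractant of neutrophils, had endothelial ratios whose intervals include 1, at 1.25 (19.8 and 24.7 CPM, 0.778 to 1.93) and 1.12 (81.1 and 91.1 CPM, 0.890 to 1.40). Knockout Cxcl1 rested on 1 cell with 42.7% of its 96 UMIs, without which the ratio was 0.668. Among the clusters, Cxcl1 was 116 and 68.8 CPM in the Aplnr-led cluster but 14.8 and 200.2 CPM in the Esm1-led cluster (13.5), where 1 knockout cell held 70.7% of the 58 knockout UMIs and the ratio without it was 4.57. In the Esm1-led cluster Cxcl2, its neighbour with the same kind of kappa B match shown above, had 6 control and 50 knockout UMIs, and a ratio of 40.7, or 21.1 without 1 knockout cell. Over all endothelial cells Cxcl2 was 9.90 and 55.0 CPM (5.56, 3.76 to 8.24), or 3.19 without 1 knockout cell that held 43.1% of its UMIs. Mural Cxcl1 was 1.97-fold higher (16.3 and 32.2 CPM, 1.29 to 2.99), but 1 control cell held 45.6% of the control UMIs. The ratio was 3.62 without that cell and 0.723 with each cell counted equally. Ccl11, an eosinophil attractant, had 0 UMIs in 276 control mural cells and 26 UMIs in 5 of 165 knockout mural cells, at least 23.2-fold higher against a floor of 3 UMIs in the class.

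Cxcl14, a homeostatic ligand of epithelia and stroma, was lower in knockout pulp mesenchyme taken as a whole class. It had 91.6 CPM there in control and 44.8 CPM in knockout, a ratio of 0.489 (0.391 to 0.607). Within the Cldn10-led cluster it was 111 and 64.7 CPM (0.586, 0.452 to 0.752). In the other cluster it was 8.63 and 26.3 CPM (3.05, 1.19 to 9.95), on 5 control and 36 knockout UMIs. The make-up of the class differed, as the Cldn10-led cluster gave 246 of 295 control and 149 of 306 knockout cells. By sex, Cxcl14 was 97.6 and 40.8 CPM in Xist-positive cells (0.418, 0.321 to 0.539) and 48.7 and 67.6 CPM in Y-positive cells (1.39, 0.738 to 2.69). Ccl25, the thymic and gut ligand of CCR9, was spread over nearly all classes at 6.06 to 30.3 CPM in the compared non-lymphoid classes of the control library and did not reach 1.5-fold except in dendritic cells (1.75, 1.07 to 2.85). Its locus overlaps Elavl1, and that of Ccl27a overlaps Il11ra1. Ccl27a, a skin-homing ligand, was 1.79-fold higher in glia (15.5 and 27.9 CPM) but 0.746 after thinning to 2000 UMIs per cell.

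Ccl2, Ccl3, Ccl4 and Cxcl2, inflammatory ligands that attract monocytes or neutrophils, were higher over whole myeloid classes of the knockout library, with differences by cluster and by sex given below. Cxcl2 was 2866 CPM in control and 5886 CPM in knockout neutrophils, a ratio of 2.05 (1.88 to 2.24), but 39.9% of the knockout UMIs came from 1 cell, and without it the ratio was 1.26. In dendritic cells Cxcl2 was 23.5 and 115 CPM (4.88, 4 to 5.98), and in monocytes or macrophages 314 and 798 CPM (2.54, 2.33 to 2.77). Ccl4 was 311 and 555 CPM in monocytes or macrophages (1.78, 1.62 to 1.96), 499 and 914 CPM in dendritic cells (1.83, 1.74 to 1.93) and 198 and 1445 CPM in neutrophils (7.31, 5.55 to 9.76). In neutrophils the macrophage markers summed to 198 and 305 CPM (8 and 10 of 15 detected) and the dendritic markers to 587 and 523 CPM (8 and 11 of 19), and their part in the neutrophil values was not tested. In B cells the Ccl4 UMIs were 93 in 1 control cell and 144 in 6 knockout cells (290.2 and 558 CPM, 1.92, 1.47 to 2.53). Ccl3 was 227 and 394 CPM in monocytes or macrophages (1.74, 1.55 to 1.94) and 162 and 255 CPM in dendritic cells (1.58, 1.44 to 1.73). Neutrophil Ccl3 was 98.8 and 545 CPM (5.52, 3.69 to 8.48), or 3.68 without 1 knockout cell. Ccl2 was 77.6 and 156 CPM in monocytes or macrophages (2.01, 1.66 to 2.42), or 1.35 without 1 knockout cell, and 39.9 and 87.3 CPM in dendritic cells (2.19, 1.84 to 2.61).

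In monocytes or macrophages the make-up of the class differed between the libraries. The cluster led by Ly6c2, a gene of classical monocytes, gave 25 of its 220 control and 114 of its 223 knockout cells. Within it, Cxcl2 was 1189 and 1259 CPM (1.06, 0.946 to 1.19), Ccl3 was 464 and 505 CPM (1.09, 0.909 to 1.31) and Ccl4 was 782 and 630 CPM (0.807, 0.699 to 0.933). In this cluster 1 control cell held 43.8% of the control Cxcl2 UMIs and 1 held 38.0% of the control Ccl4 UMIs, and leaving out the top cell gave 1.78 for Cxcl2 and 1.26 for Ccl4. In the C1qb-led macrophage cluster (134 and 39 cells) Ccl3 was 232 and 453 CPM (1.96, 1.61 to 2.36) and Ccl4 301 and 865 CPM (2.88, 2.48 to 3.32). There the top knockout cell held 41.2% of the Ccl3 and 48.6% of the Ccl4 UMIs, and without it the ratios were 1.22 and 1.57. In the Pf4-led macrophage cluster (61 and 70 cells) Cxcl2 was 66.6 and 13.8 CPM, but 94.6% of the 37 control UMIs were in 1 cell and the ratio of 0.207 was 3.75 without it. In the main dendritic cluster, led by Cd209a (224 and 220 cells), the higher level held within the cluster for Cxcl2 (4.96, 4.04 to 6.14), Ccl4 (1.68, 1.60 to 1.77), Ccl3 (1.63, 1.48 to 1.79) and Ccl2 (2.17, 1.81 to 2.62).

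The neutrophil markers (12 of 13 detected in each library) summed to 272 CPM in control and 3994 CPM in knockout monocytes or macrophages, and to 54.0 and 224 CPM in dendritic cells (12 and 13 of 13). Their part in the Cxcl2, Ccl3, Ccl4 and Cxcr4 values of these classes was not tested.

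The same ligands differed between cells of the 2 sexes within a library. In control dendritic cells Ccl4 was 373 CPM in 207 Xist-positive cells and 1046 CPM in 54 Y-positive cells, and for the knockout it was 902 and 874 CPM. Ccl2 was 22.0 and 102 CPM in control Xist-positive and Y-positive dendritic cells, and 81.8 and 129 CPM in the knockout ones. In monocytes or macrophages Ccl3 was 178 and 456 CPM (control) and 427 and 389 CPM (knockout). The knockout over control ratio of Ccl4 was thus 2.42 (2.26 to 2.59) in Xist-positive and 0.836 (0.764 to 0.913) in Y-positive dendritic cells. For Cxcl2 in dendritic cells the ratio was above 1 in both, at 17.7 (12.1 to 26.5) and 2.14 (1.42 to 3.28). Cells of different sex come from different animals, so sex and animal cannot be told apart here. Y-positive cells were 20.7% of the sexed control dendritic cells and 34.6% of the knockout ones.

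**Figure D5:**
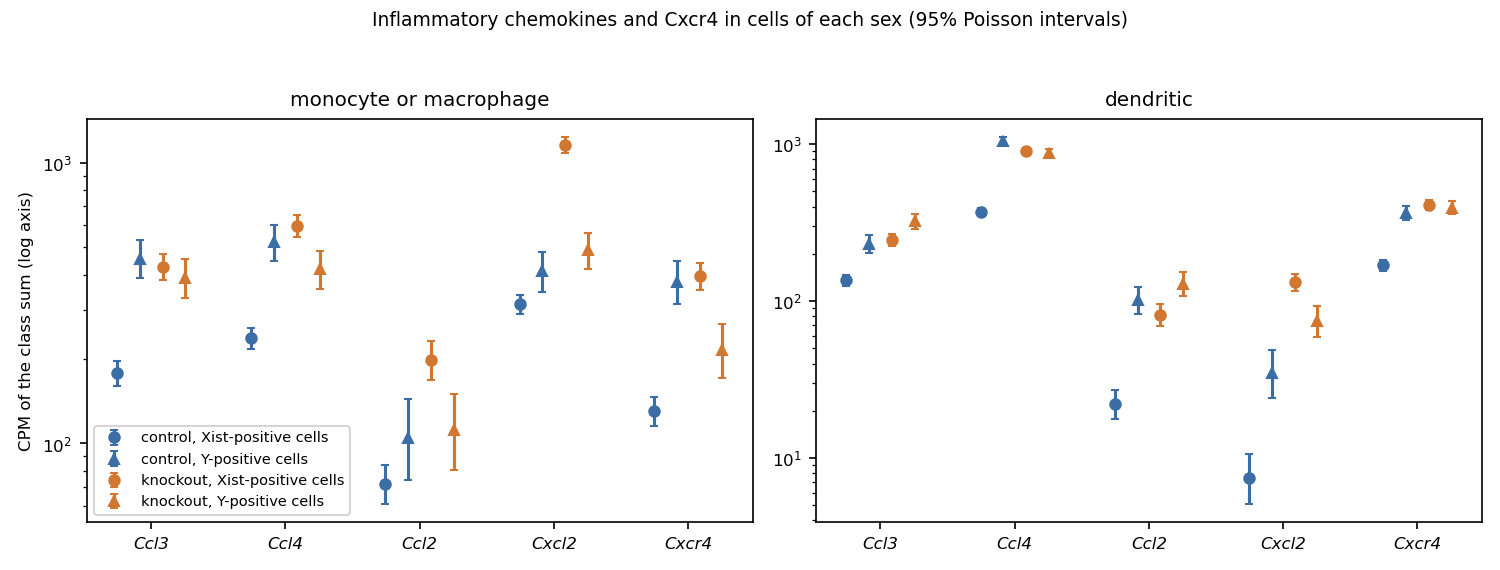
CPM of the class sum (log axis) for Ccl3, Ccl4, Ccl2, Cxcl2 and Cxcr4 in Xist-positive cells (circles) and Y-positive cells (triangles) of the control (blue) and knockout (orange) libraries, with 95% Poisson intervals. For each gene in both classes the control Xist-positive cells are the lowest point, such as 373 CPM of Ccl4 in dendritic cells beside 1046, 902 and 874 CPM.

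Of the CCR2 ligands that lie together on chromosome 11, Ccl7 and Ccl12 were lower in knockout monocytes or macrophages. Ccl2 (chr11:82035571-82037453), Ccl7 (chr11:82045712-82047525) and Ccl12 (chr11:82101845-82103400) all encode ligands of CCR2. Over the whole monocyte or macrophage class Ccl12 was 147 and 85.3 CPM (0.580, 0.475 to 0.704) and Ccl7 62.4 and 40.3 CPM (0.645, 0.478 to 0.862), while Ccl2 was higher. Without the top control cell the ratio was 0.760 for Ccl12 and 0.857 for Ccl7, both under 1.5-fold. Most of their UMIs came from the Pf4-led macrophage cluster, in which Ccl12 was 613 and 359 CPM (0.585, 0.474 to 0.717), or 0.775 without 1 control cell, and Ccl7 259 and 108 CPM (0.415, 0.284 to 0.595). Ccl2 was not higher in that cluster, at 128 and 96.5 CPM (0.756, 0.489 to 1.15). Its ratio was 1.16 (0.809 to 1.70) in the Ly6c2-led cluster. In the C1qb-led cluster the Ccl2 ratio was 5.30, but 1 knockout cell held 89.7% of the knockout UMIs, and without it the ratio was 0.58. In the C1qb-led cluster all 26 knockout UMIs of Ccl7 were in 1 of 39 cells, beside 20 control UMIs. By sex, Ccl12 was 168 and 64.4 CPM for Xist and 65.2 and 93.4 CPM for Y-linked genes, and the interval of the latter ratio includes 1 (0.826 to 2.53). Ccl24, a ligand of CCR3 made by macrophages, was 60.9 and 43.3 CPM (0.710, 0.530 to 0.943). Ccl6 and Ccl9, CCR1 ligands that lie beside Ccl3 and Ccl4, stayed within 1.5-fold, at 1.17 and 1.04 in monocytes or macrophages and 0.779 and 0.803 in dendritic cells. Ccl6 was highest in control neutrophils, at 660 and 500 CPM (0.757, 0.596 to 0.959), and Ccl9 in control dendritic cells, at 231 and 186 CPM (0.731 to 0.882). Ccl7 in dendritic cells was 6.06 and 11.9 CPM (1.97, 1.23 to 3.18), or 4.45 without 1 control cell.

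Cxcl16, the scavenger-type ligand of CXCR6, differed by class. It was 47.7 and 18.6 CPM in monocytes or macrophages (0.391, 0.255 to 0.583) and 81.0 and 174 CPM in dendritic cells (2.14, 1.90 to 2.42). Within macrophage clusters the ratios were 0.589 and 0.738 with intervals that include 1. In Cd209a-led dendritic cells Cxcl16 was 87.4 and 198 CPM (2.27, 1.98 to 2.60). Cxcl10, an interferon-induced ligand of CXCR3, was 59.8 and 81.6 CPM in dendritic cells (1.36, 1.16 to 1.60), under the 1.5-fold limit. Ccl5, an attractant of T cells and monocytes, was 14.4 and 38.5 CPM in monocytes or macrophages (2.67, 1.76 to 4.11), but 1 knockout cell held 89.1% of its 64 UMIs there and without it the ratio was 0.296. In dendritic cells Ccl5 was 17.6 and 46.1 CPM (2.61, 2.03 to 3.38), or 1.68 without 1 knockout cell.

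Dendritic cells carried the largest ratio of any receptor with at least 20 UMIs in a compared class. Ccr7, which guides mature dendritic cells to lymph nodes, was 14.3 CPM in control and 120 CPM in knockout dendritic cells, a ratio of 8.39 (6.60 to 10.8). It was found in 5.21% of 288 control and 21.3% of 291 knockout cells, with medians of 18949 and 12720 UMIs per cell. Glia, taken as a class without the gene, had medians of 12229 and 8648 UMIs, and their shares were 0.299% and 0.304%. With each cell thinned to 2000 UMIs the dendritic shares were 2.13% (0.785% to 4.57%) of 282 cells and 9.03% (5.93% to 13.0%) of 277. Within the Cd209a-led cluster Ccr7 was 16 and 134 CPM (8.34, 6.39 to 11). Its ratio was 17.3 (12.3 to 24.7) in Xist-positive and 3.35 (2.15 to 5.40) in Y-positive dendritic cells. The T or NK markers, cells of which some also carry Ccr7, summed to 15.1 and 66.2 CPM in dendritic cells (8 and 10 of 18 detected), and their part was not tested.

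Ligands typical of mature dendritic cells came from few cells. Ccl22, a ligand of CCR4, had 12 UMIs in 5 control and 120 in 9 knockout dendritic cells (2.14 and 32.5 CPM). Its ratio was 15.2, but 75.0% of the knockout UMIs were in 1 cell, and leaving that cell out gave 3.82. Ccl17, which shares the receptor, was 5.34 and 12.7 CPM (2.38, 1.48 to 3.91), or 1.32 without its top cell. Xcr1, the receptor of cross-presenting dendritic cells, was found mostly in the Clec9a-led cluster, with 148 of 155 control and 80 of 91 knockout dendritic UMIs. Its level there was 253 and 134 CPM (0.529, 0.398 to 0.700), while the class value was 27.6 and 24.7 CPM (0.894, 0.682 to 1.17), and that cluster held 26 control and 47 knockout cells.

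Over whole myeloid classes Cxcr4 was higher in the knockout library, whereas in vessels it was lower. It was 206 and 373 CPM in dendritic cells (1.81, 1.68 to 1.96), 176 and 306 CPM in monocytes or macrophages (1.75, 1.54 to 1.98) and 316 and 505 CPM in neutrophils (1.60, 1.21 to 2.12), or 1.38 without 1 knockout cell. Within the Ly6c2-led monocyte cluster it was 487 and 453 CPM (0.930, 0.778 to 1.12). In the C1qb-led cluster its ratio was 1.23 (0.930 to 1.60), or 0.886 without 1 knockout cell. Within Cd209a-led dendritic cells Cxcr4 was 200.2 and 424 CPM (2.12, 1.93 to 2.32). In the dendritic cluster led by cell-division genes the ratio was 1.51 (1.23 to 1.85), or 1.295 without 1 knockout cell. In Clec9a-led dendritic cells it was 0.875 (0.620 to 1.23), or 1.51 without 1 control cell. In Xist-positive monocytes or macrophages Cxcr4 was 130 and 395 CPM (3.03, 2.57 to 3.57), and in Y-positive ones 377 and 215 CPM (0.571, 0.429 to 0.757). The dendritic ratio was 2.44 (2.20 to 2.70) in Xist-positive and 1.075 (0.933 to 1.24) in Y-positive cells. In B cells Cxcr4 was 197 and 120 CPM (0.611, 0.384 to 0.954), or 0.842 without 1 control cell with 28.6% of its UMIs.

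Ccr2, Cx3cr1 and Ccr1, receptors of monocyte recruitment, stayed within 1.5-fold over the whole monocyte or macrophage class, but not in each cluster. Ccr2, by which monocytes leave the bone marrow and enter tissue, was 1129 and 771 CPM in monocytes or macrophages (0.683, 0.639 to 0.729) and 602 and 439 CPM in dendritic cells (0.729, 0.687 to 0.774). The Ccr2 ratio was also below 1 in the C1qb-led (0.770), Ly6c2-led (0.726) and Cd209a-led (0.716) clusters and in both sexes of monocytes or macrophages (0.620 and 0.737). The Clec9a-led dendritic cells differed, at 342 and 397 CPM (1.16, 0.958 to 1.41). Cx3cr1, the receptor of CX3CL1, was 594 and 403 CPM in monocytes or macrophages (0.679, 0.620 to 0.744). The C1qb-led and Ly6c2-led clusters had Cx3cr1 ratios of 0.613 and 0.588, with intervals that leave out 1. In the Pf4-led macrophages Cx3cr1 was higher, at 1034 and 1368 CPM (1.32, 1.17 to 1.49). In dendritic cells it was 48.8 and 31.5 CPM (0.645, 0.514 to 0.804), or 0.751 without 1 control cell. Ccr1 was 222 and 303 CPM in monocytes or macrophages (1.37, 1.21 to 1.54) and 453 and 295 CPM in neutrophils (0.652, 0.479 to 0.881), or 0.707 without 1 control cell. Its ratio was 1.71 (1.26 to 2.38) in the Ly6c2-led, 1.09 in the C1qb-led and 1.35 in the Pf4-led cluster.

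Of the receptors with a narrow home, Cxcr2, the neutrophil receptor of CXCL1 and CXCL2, had 316 and 245 CPM in neutrophils, with an interval that includes 1 (0.547 to 1.09). Cxcr5, which guides B cells to follicles, had 49.9 and 38.8 CPM in B cells (0.315 to 1.82 for the ratio), and Ccr9, the receptor of CCL25, 59.3 and 62 CPM. In dendritic cells Ccr9 had 25 control and 6 knockout UMIs (4.45 and 1.63 CPM, 0.365, 0.123 to 0.912), or 0.650 without 1 control cell with 44.0% of the control UMIs. Ccr7 in B cells, 131 and 77.6 CPM, had a ratio of 0.592 with an interval that includes 1 (0.329 to 1.03), or 0.714 without 1 control cell. Neutrophil Cxcl12, 49 control and 3 knockout UMIs, came to 59.2% from 1 control cell, without which the ratio was 0.207. The pulp mesenchyme markers in control neutrophils summed to 2825 CPM and in knockout neutrophils to 191 CPM. Their part in this ratio of 0.0873 was not tested.

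In the small T or NK class, given as values only, Ccl5 was 256 CPM (192 to 334) in 19 control cells and 1181 CPM (1056 to 1317) in 32 knockout cells. Xcl1, the ligand of XCR1, was 23.7 CPM (7.69 to 55.3) and 128 CPM (88.9 to 177). Cxcr6, which retains lymphocytes in tissue, was 497 CPM (407 to 602) and 204 CPM (154 to 265), and Ccr2 was 1127 CPM (988 to 1280) and 284 CPM (225 to 355). The Xcl1 UMIs of the control library all came from 1 cell, and 88.9% of the 18 knockout UMIs of Ccl1 from 1 cell.

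Members too low for a ratio in any class were Ccl28 (27 UMIs in the matrices), Ccl8 (25), Cxcl9 (24) and Ccr6 (28), and Cxcl3 (32), Xcl1 (54), Ccl1 (26) and Cxcr6 (183) had 20 UMIs only in T or NK cells. Cxcr3, the receptor of CXCL9 and CXCL10, was within 1.5-fold in dendritic cells (10.2 and 11.1 CPM) and in monocytes or macrophages (14 and 12 CPM).

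By pattern over 11 classes in both libraries (22 values of log2(CPM + 1), which share cells and depth), the genes most like Cxcl12 were Plxna2 (Pearson r = 0.97), Nhsl1 (0.95) and Hmcn1 (0.95), of 14035 genes ranked. For Ccl3 they were Il1b (0.95), Cd14 (0.94) and Alox5ap (0.94), for Ccl2 Wfdc17, Hotairm1 and Slc13a3 (0.93, 0.92 and 0.92), and for Ccl17 Klri1 (0.97), Ccl22 (0.93) and Xcr1 (0.93). These 22 points are not independent, and no test was made. Among loci, Cxcl16 overlaps Zmynd15, Cxcl10 overlaps Art3, Ccl2 overlaps Gm17268 and the annotated span of Cx3cr1 holds several other genes, so some of their reads may be shared.

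Other genes of the pathway were taken from lists chosen with earlier results known. Of 20 inducers of chemokines, 7 of 15 tested were at least 1.5-fold higher and 0 lower in knockout endothelial cells, where the shares of all genes were 11.9% and 15.2%, among them Nfkbia (368 and 782 CPM), the inhibitor induced by NF-kappa B, Stat3 (106 and 237 CPM) and Irf1 (80.1 and 155 CPM). In monocytes or macrophages 5 of 16 inducers were higher and 1 lower (11.3% and 11.4% of all genes), with Il1b at 215 and 383 CPM and Tlr2 at 122 and 276 CPM. In dendritic cells 3 of 17 were higher and 2 lower (9.37% and 14.4% of all genes), with Il1b at 366 and 957 CPM and Tnf at 149 and 70.5 CPM. Of the G protein and second messenger genes, 0 of 10 passed 1.5-fold in monocytes or macrophages or in dendritic cells, and of 13 cytoskeleton and migration genes 0 were higher and 1 and 0 were lower in these classes. In the list of related proteins with other symbols, Cd74, the receptor of MIF and an antigen presentation chaperone, was 7539 and 3573 CPM in monocytes or macrophages (0.474, 0.460 to 0.488). The make-up of this class differed between the libraries, as described above. Its part in the Cd74, Il1b and Tlr2 values of the class was not tested. Ccrl2, a non-signalling relative of the chemokine receptors, was 246 and 132 CPM in neutrophils (0.537, 0.338 to 0.833). Among genes for shedding and presentation on matrix, 4 of 16 were higher and 2 lower in both endothelial cells (11.9% and 15.2% of all genes) and mural cells (10.9% and 11.5%). Of the receptor desensitisation genes, 5 of 10 were higher and 0 lower in pulp mesenchyme (10% and 9% of all genes), and 1 was higher and 4 lower of 10 in glia (9.66% and 11.1%).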

How the data were processed

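The authors deposited filtered UMI count matrices of 31053 genes per library, not normalised. Per the file headers Cell Ranger 5.0.0 wrote the control matrix and 6.0.1 the knockout matrix. Only 6.0.1, with mm10, is named in the submitters' processing notes. The deposited counts held 35918862 UMIs in 3487 control barcodes and 17277162 in 2563 knockout barcodes.

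Barcodes with at least 500 genes, 1000 UMIs and at most 10% mitochondrial UMIs were kept, and Scrublet removed 24 of 4012 as doublets (0.598%), so doublets remain. Clustering used 2000 variable genes without the members, 30 components, 15 neighbours and Leiden resolution 1, with no batch integration. Of 24 clusters 22 were named, each resting on at least 3 fixed markers detected in 10% of its cells. A cluster stayed unnamed where its 10 leading genes held more markers of another class. Clusters 9 (glia) and 18 (dendritic) are led by cell-division genes. The pulp mesenchyme markers are also detected in the Col9a1-led cluster.

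UMIs were summed per class and library and scaled to CPM. Ratios, for classes with at least 30 cells per library and genes with 20 UMIs in the class, carry exact conditional Poisson intervals, and shares exact Clopper-Pearson intervals. A call is 1.5-fold, with no test. The ratio, its interval and the 1.5-fold rule were tested on simulated Poisson counts of class sums. Such counts leave out UMIs gathered in 1 cell, so the intervals of such genes were not checked. Every member is named except 1, which is counted but not reported here, with full values for pairs given a ratio where the 1.5-fold ratio's interval leaves out 1 or, among these classes, the class leads the control level. Members, lists and rules were chosen with earlier results of these data known. Alternatives changed the scaling, UMI limits, mitochondrial limit, doublets, resolution, cell-by-cell gating, equal cell weights, thinning to 2000 UMIs, sex, the top cell and the fold limit. Tools were Python 3.11.15, scanpy 1.11.5, numpy 2.4.6, scipy 1.17.1 and pandas 2.3.3.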

Additional observations from a re-analysis of the deposited data

Results flagged for a closer look

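The following 3 members had ratios on opposite sides of 1.5-fold in different classes, each with an interval that leaves out 1 for counting error only, and the difference between classes was not tested. Cxcr4 had knockout over control ratios of 0.353 in mural, 0.611 in B and 0.627 in endothelial cells, and of 1.60 in neutrophils, 1.75 in monocytes or macrophages, 1.81 in dendritic cells, 2.28 in glia and 3.12 in pulp mesenchyme. The last 2 rest on 14 and 22 UMIs and on 8 and 21 UMIs, control before knockout, and without the top cell the ratio was 0.842 in B cells, 0.696 in endothelial cells and 1.38 in neutrophils. Cxcl16 had a ratio of 0.391 in monocytes or macrophages and 2.14 in dendritic cells. Within the C1qb-led and Pf4-led macrophage clusters its ratios were 0.589 and 0.738, with intervals that include 1. Ccl7 had a ratio of 0.645 in monocytes or macrophages and 1.97 in dendritic cells, where 1 control cell held 55.9% of the 34 control UMIs and the ratio without it was 4.45. Without the top control cell the monocyte or macrophage ratio of Ccl7 was 0.857.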

How the results depend on the processing

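No paired analysis was possible because each genotype had 1 library, and leaving out a replicate was not possible for the same reason. The counts of 42 higher and 15 lower pairs were 78 and 27 with no low-count limit, 26 and 7 at a fold limit of 2, and 7 and 9 in Y-positive cells, where 47 pairs had enough UMIs and cells. Thinning left 18 higher pairs of 60, leaving out the top cell 9 lower pairs of 97, and the 10% level limit, added after seeing the data, 27 higher pairs. The other alternatives stayed within 1.5 times the main counts, and the leading-class counts stayed within it in every alternative run. Of 50 ratios that passed 1.5-fold and are given with full values, 40 stayed on the same side of 1 in each alternative that gave a value. The reversed ratios in Y-positive cells were 0.801 for Ccl4, 0.571 for Cxcr4, 0.853 for Ccl3 and 1.43 for Ccl12 in monocytes or macrophages, 0.836 for Ccl4 and 0.670 for Ccl7 in dendritic cells, and 1.39 for Cxcl14 in pulp mesenchyme. Mural Cxcl1 was 0.723 with cells counted equally and 0.484 after thinning, and Ccl27a in glia 0.746 after thinning. Mural cells had too few Y-positive control cells (26) for the Y-positive run, so mural Cxcl1 is not in that list. Ccl5 in monocytes or macrophages was 0.185 with up to 20% mitochondrial UMIs, 0.817 with cells counted equally and 0.296 without the top cell. Apart from the top cell, the cause was not tested. Few cells limit the B, neutrophil and T or NK classes, and 1 cell can carry a ratio there.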
